A study of Homo sapiens with 1 sample.

Results

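The mature arms of miR-33a, miR-33b and miR-210 were read on 1 microRNA (miRNA) microarray of DLD-1, an established human colorectal carcinoma line. They were chosen by name among the human miRNA probes, with or without an arm suffix, and 6 of the 2549 miRNAs on the array met that rule: miR-33a-5p, miR-33a-3p, miR-33b-5p, miR-33b-3p, miR-210-3p and miR-210-5p. The cells had been grown in RPMI 1640 with serum and given a negative control siRNA by transfection (si-NC, n = 1 array). The study asked how loss or overexpression of circLONP2, a circular RNA made from LONP2 exons, alters miRNA levels. Arrays of knocked-down or overexpressing cells were not analysed here, which leaves no groups to compare and no p-value to give. With a single array there was no biological replicate, and each error below is technical, taken over replicate spots or as the scanner software estimates it. Neither oxygen nor sterol supply was varied in this sample.

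MiRNAs are short RNAs processed from folded precursors (hairpins), whose left and right arms give the 5p and the 3p product. It finds its targets mainly through its seed, bases 2 to 8 from the 5′ end. The miR-33 genes lie within introns of the genes for the sterol regulatory element binding proteins, miR-33a in SREBF2 and miR-33b in SREBF1, and their products are known to repress cholesterol exporters such as ABCA1 and genes of fatty acid oxidation. MiR-210 is the classic miRNA induced by low oxygen through hypoxia-inducible factors, and it represses the iron-sulfur cluster scaffold ISCU and with it mitochondrial respiration. For miR-33 the 5p arm, and for miR-210 the 3p arm, is the product usually loaded as the guide strand.

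The mature sequences are shown because the arms differ in which seeds they share and in how alike the miR-33 paralogues are. They are taken from RefSeq (GRCh38.p14), 5′ to 3′, with the seed in capitals.
hsa-miR-33a-5p: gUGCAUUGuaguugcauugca
hsa-miR-33b-5p: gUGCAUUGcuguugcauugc
hsa-miR-33a-3p: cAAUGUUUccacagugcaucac
hsa-miR-33b-3p: cAGUGCCUcggcagugcagccc
hsa-miR-210-3p: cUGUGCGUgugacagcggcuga
hsa-miR-210-5p: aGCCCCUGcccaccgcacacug

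The guide arms of the miR-33 pair had the same seed and matched at 18 of 20 compared bases. Counted from the 5′ end of miR-33a-5p, the differences were U9C and A10U, just past the seed, and miR-33a-5p had 1 further base at its 3′ end. The 3p arms were less alike, with the same base at 15 of 22 positions and different seeds. No other array miRNA with a RefSeq sequence (2248 of 2549 matched by name) was closer to either miR-33 guide than the paralogue, at 3 edits. The nearest sequence lay 8 edits from miR-210-3p and 7 edits from miR-210-5p. GC content was 42.9% for miR-33a-5p, 50% for miR-33b-5p, 45.5% for miR-33a-3p, 72.7% for miR-33b-3p, 63.6% for miR-210-3p and 72.7% for miR-210-5p, around an array median of 52.2%.

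The hairpins are shown to place the arms, with the 2 mature products of each in capitals. MIR33A spans chr22:41900944-41901012 on the plus strand, inside SREBF2. MIR33B spans chr17:17813836-17813931 on the minus strand, inside SREBF1. MIR210 spans chr11:568089-568198 on the minus strand, inside the long noncoding RNA gene MIR210HG. Each has the strand of the gene around it. These are GRCh38.p14 positions of the sequences, while the array was designed on hg19.
MIR33A: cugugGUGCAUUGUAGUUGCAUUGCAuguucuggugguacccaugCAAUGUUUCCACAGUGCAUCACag
MIR33B: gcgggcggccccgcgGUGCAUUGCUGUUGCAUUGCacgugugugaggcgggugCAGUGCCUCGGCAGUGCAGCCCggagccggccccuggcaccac
MIR210: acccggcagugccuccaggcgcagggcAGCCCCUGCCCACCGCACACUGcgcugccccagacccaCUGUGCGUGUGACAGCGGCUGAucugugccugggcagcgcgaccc

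Each arm was read by 20 spots on the array. MiR-33a-5p, miR-210-3p and miR-210-5p had 2 probes of 10 spots, and the other 3 arms had 4 probes of 5 spots, which made 18 probes and 120 spots in all. Spot signals below are background-subtracted intensities in scanner units. The 1000 negative control spots had a median of 0.0894, and their 99th percentile was 16.1. The flag for spots well above background was set on 1.40% of these controls. No spot of the array was saturated. As a check of the cell type, all 10 miRNA markers of colon epithelium were called detected, against 44.4% of all miRNAs. Of 9 markers of liver, muscle, nerve and blood 3 were called (miR-9-5p, miR-451a and miR-223-3p, named after their calls were seen). What carries the signal of those 3 was not tested. At 33.3%, this second count is not far from the share of all miRNAs. The calls thus do not show that other tissues are absent and do not by themselves establish tissue identity.

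The scanner software called 5 of the 6 arms detected, against 44.4% of all 2549 miRNAs. The arm not called was miR-33b-5p, the SREBF1 guide. Both arms of miR-33a, both arms of miR-210 and the passenger arm miR-33b-3p were called. The software sums the probes whose signal is over 3 times its error into a total gene signal. That signal was 538 ± 38.2 (error from the scanner software) for miR-210-3p, 94.5 ± 7.51 for miR-33a-5p, 10.4 ± 0.835 for miR-33a-3p, 7.27 ± 0.631 for miR-33b-3p and 2.43 ± 0.539 for miR-210-5p. The median over the 1133 detected miRNAs was 12.5, with quartiles of 4.99 and 52.0. Signals of different miRNAs come from probes that may bind unequally, so these values are set side by side and not read as relative abundance.

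**Figure D1:**
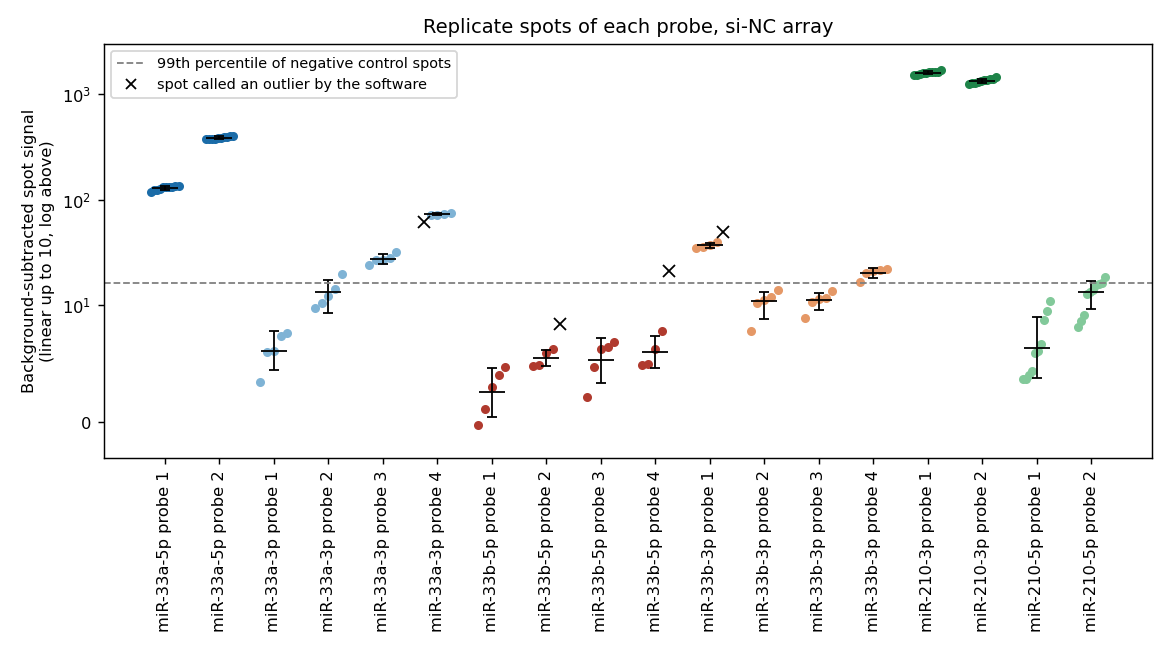
Background-subtracted signal of every replicate spot (points) for the 18 probes of the 6 arms on the si-NC array, with the mean and SD over spots kept (bars) and spots called outliers by the software (crosses); the axis is linear up to 10 and logarithmic above, and probes are numbered in the order of their names. All spots of miR-210-3p and miR-33a-5p lie above the dashed line, the 99th percentile of the negative controls (16.1), while of miR-33b-5p only 1 outlier spot does.

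MiR-210-3p, the hypoxia-linked guide, gave a clear signal on both of its probes. The spots of the brighter probe ran from 1525 to 1700 with a median of 1610, and those of the other from 1248 to 1451 with a median of 1349. All 20 spots were well above background, and the probe means were 99.2 and 83.1 times the 99th percentile of the negative control spots. The ranges of the 2 probes did not overlap, and the brighter exceeded the dimmer by 0.25 ± 0.03 on the log2 scale (SE from replicate spots, 10 spots each). The array median of this difference was 0.32 over the 682 detected miRNAs with 2 probes above background, so the probes of miR-210-3p differed by about as much as is common here.

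MiR-210-5p, the other arm of the hairpin, lay near the detection limit. On its brighter probe the spots ran from 8.18 to 18.7 with a median of 13.7, and 6 of 10 were well above background. On its other probe they ran from 3.70 to 11.04 with a median of 6.02, and none of 10 was. Only 2 of the 20 spots were above the 99th percentile of negative controls. The call came from a single probe, whose signal was 4.50 times its error, while the second stood at 2.37 times. Of the detected miRNAs, 15.7% had a lower best ratio than this arm. Its signal error was 22.2%, close to the median of 20.5% for the 284 detected miRNAs with a signal under 5.

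MiR-33a-5p, the guide cut from the SREBF2 intron, was read well by both of its probes. The spots of one ran from 118 to 135 with a median of 131, and those of the other from 375 to 406 with a median of 385. All 20 were well above background and above the negative controls. The probes differed by 1.59 ± 0.02 on the log2 scale, or 3.01-fold, far beyond the spread of their spots, and 93.0% of the 682 miRNAs with 2 such probes showed a smaller difference. The signal of this arm thus depends on the probe read, although either probe gave detection.

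MiR-33a-3p, the other product of that hairpin, was also called, on 3 of its 4 probes. The probe means ran from 6.12 ± 1.65 (SD, 5 spots) through 13.3 ± 3.99 (5 spots) and 27.5 ± 2.83 (5 spots) to 73.0 ± 1.70 (4 spots). The dimmest had no spot well above background, and the next had 2 of 5. The remaining pair had all of their spots well above background and differed by 1.41 ± 0.07 on the log2 scale. Over all 4 probes the brightest exceeded the dimmest by 3.58 ± 0.18. The remaining spot of the brightest probe, at 62.2, was called an outlier and left out of its mean.

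MiR-33b-5p, the guide of the SREBF1 hairpin, was not called detected. The means of its 4 probes were 2.56 ± 2.06 (SD, 5 spots), 5.49 ± 0.706 (4 spots), 5.30 ± 1.93 (5 spots) and 5.99 ± 1.35 (4 spots), and the ratios of probe signal to error were 0.973, 2.06, 1.98 and 2.23, all under 3. Its spots ran from -0.25 to 20.9 with a median of 4.95. The highest, which was the 1 spot flagged well above background, was also called an outlier. Without the 2 outlier spots, none of 18 was well above background or past the 99th percentile of negative controls.

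This arm was however not level with the negative controls. Of its 20 spots 17 (85.0%) were flagged as positive and significant, compared with 9.90% of negative control spots and 22.6% of spots of undetected miRNAs. Of the undetected miRNAs, 92.5% had a lower best ratio than the 2.23 of miR-33b-5p. Since the software writes 0.1 for the total gene signal of every undetected miRNA, that value gives no level, and what the array shows is a signal under the limit of detection. On the scale of total probe signal, which differs from that of single spots, the best probe read 0.547, under its limit of 0.736 (3 times the error of that probe). The near-identical miR-33a-5p, at 3 edits, gave its signal on the same array, and whether any of it reached the probes of miR-33b-5p was not tested. Probe sequences were not used here.

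MiR-33b-3p, the passenger arm, was called on all 4 of its probes, at 8.16, 3.90, 3.96 and 6.12 times their error. The probe means were 36.9 ± 2.36 (SD, 4 spots), 11.1 ± 2.23 (5 spots), 11.3 ± 1.66 (5 spots) and 20.3 ± 2.13 (5 spots). The first and the last of these had all spots well above background and differed by 0.87 ± 0.08 on the log2 scale. The middle pair had 1 of 5 spots each, with ranges that overlapped. An outlier spot at 49.3 was left out of the brightest probe.

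**Figure D2:**
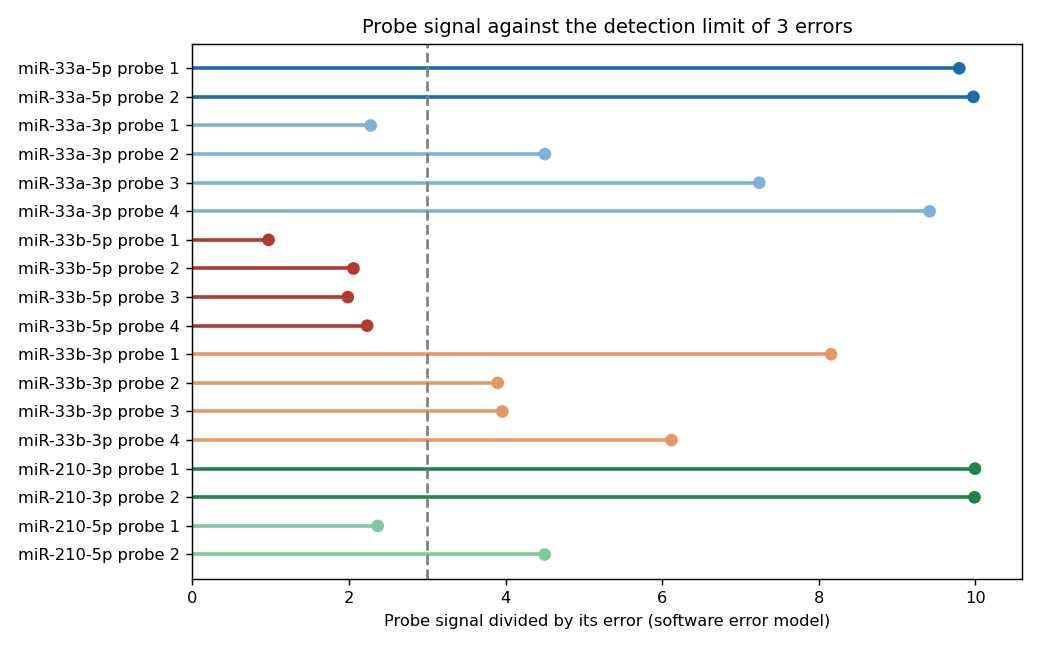
Probe signal divided by its software error (horizontal axis, no unit) for each of the 18 probes, with the limit of 3 errors (dashed). Of the 18 probes 12 pass the limit, none of them from miR-33b-5p, and the bright probes crowd just under 10.

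The ratio stops discriminating for bright probes, because their error is a near-constant share of the signal. It was 9.97 for the better probe of miR-33a-5p and 9.99 for that of miR-210-3p, and the highest best ratio on the array was 10.0. Differences in ratio between these arms thus carry no information about level.

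The pattern of arms was compared with the other hairpins of the array. Of 810 pairs of names that differ only in the 5p or 3p suffix, 28.6% had both arms called, 20.1% only the 5p arm, 15.1% only the 3p arm and 36.2% neither. By the software flag, which gave these shares, miR-33a and miR-210 belong to the first class. MiR-33b belongs to the third, with its passenger called and its guide not. Among the 517 pairs with any arm called, both were called in 44.9% and only the 3p arm in 23.6%, so neither class is rare by this flag. These classes go by arm name, and the class with only the 3p arm also takes in hairpins whose guide is the 3p arm. How often a passenger was called without its guide was not counted. The classes depend on the rule. Under the rules on negative controls and on a signal of 5 or more, described below, miR-210 kept only its 3p arm. With every probe required, miR-33a kept only its 5p arm, miR-210 only its 3p arm and miR-33b neither.

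The seed groups gave a further view. Seeds were compared over the 2248 array miRNAs with a RefSeq sequence. Among these, UGCAUUG was held by miR-33a-5p and miR-33b-5p alone, and 1 of the 2 was called. The seed AGUGCCU of miR-33b-3p was shared, among the same miRNAs, with miR-515-3p and miR-519e-3p, both from the primate-specific cluster of chromosome 19. The sequences are shown for the extent of the match, which ends soon after the seed.
hsa-miR-515-3p: gAGUGCCUucuuuuggagcguu
hsa-miR-519e-3p: aAGUGCCUccuuuuagaguguu
MiR-515-3p was not called, with 0 of 20 spots well above background. MiR-519e-3p was called at 2.24 ± 0.531, with 6 of 20 such spots. The seeds of miR-33a-3p, miR-210-3p and miR-210-5p were held by no other array miRNA with a RefSeq sequence.

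How firmly each arm was called was next examined with other rules. Asking that 50% or more of the spots on any single probe be well above background, the same 5 arms were called, against 37.9% of all miRNAs. When the median spot of the best probe had to pass the 99th percentile of negative controls, miR-210-5p was lost and 4 arms were left, against 34.8% of all miRNAs. A signal of 5 or more on top of the software flag also left 4, against 33.3%. When each probe of an arm had to pass that share, miR-210-3p and miR-33a-5p were the 2 arms left, against 29.3%. MiR-33b-5p was called by none of these rules.

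**Figure D3:**
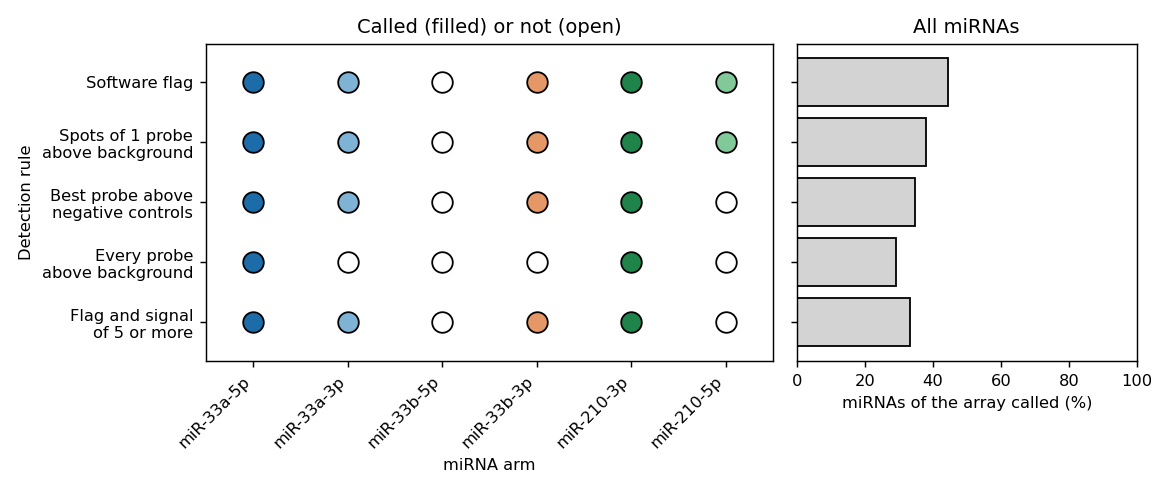
Left, calls of the 6 arms (filled, called; open, not called) under 5 detection rules; right, the percentage of all 2549 miRNAs called by each rule. Only miR-33a-5p and miR-210-3p are filled in every line, and miR-33b-5p is open in every line.

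The difference between probes was set against the rest of the array for the 4 arms that had 2 probes above background. It was 0.25 for miR-210-3p, 0.87 for miR-33b-3p, 1.41 for miR-33a-3p and 1.59 for miR-33a-5p on the log2 scale. The last 3 lay above the upper quartile of 0.70 over the 682 miRNAs with 2 such probes. Background correction by normexp, which adds an offset to every signal, lowered the values to 0.24, 0.31, 0.61 and 1.26 in the same order. For miR-33a-3p and miR-33b-3p only 2 of 4 probes entered this comparison. Over all 4, without normexp, the differences were 3.58 and 1.74.

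**Figure D4:**
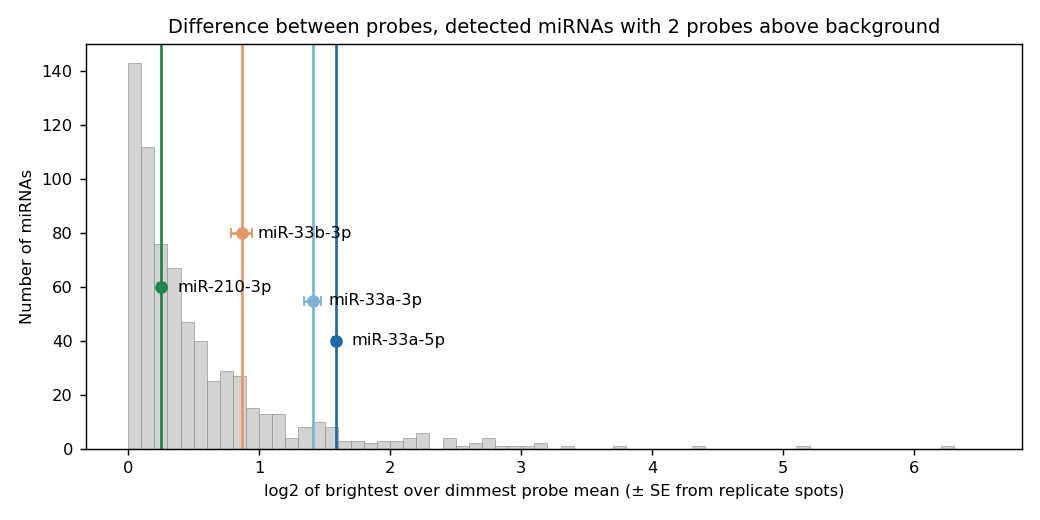
Histogram of the log2 ratio of brightest to dimmest probe mean over the 682 detected miRNAs with 2 probes above background, with the 4 arms marked (points, bars are the SE from replicate spots, their height has no meaning). MiR-210-3p (0.25) lies near the array median of 0.32, and the 3 miR-33 arms lie to its right, from 0.87 to 1.59.

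The spread of replicate spots gave the technical error behind these values. Over the 9 probes of these arms that passed the share of 50%, the coefficient of variation (CV) had a median of 4.84% and ran from 2.33% to 27.0%. The array median was 8.73% over 1940 such probes. Read by signal, the 2 miR-210-3p probes had CVs of 3.35% and 4.84% beside a median of 3.76% for probes at 1000 and over, and the 2 miR-33a-5p probes 4.32% and 2.89% beside 5.68% for probes from 100 to 1000. The brighter miR-210-5p probe had a CV of 27.0% beside 15.8% for probes under 20.

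**Figure D5:**
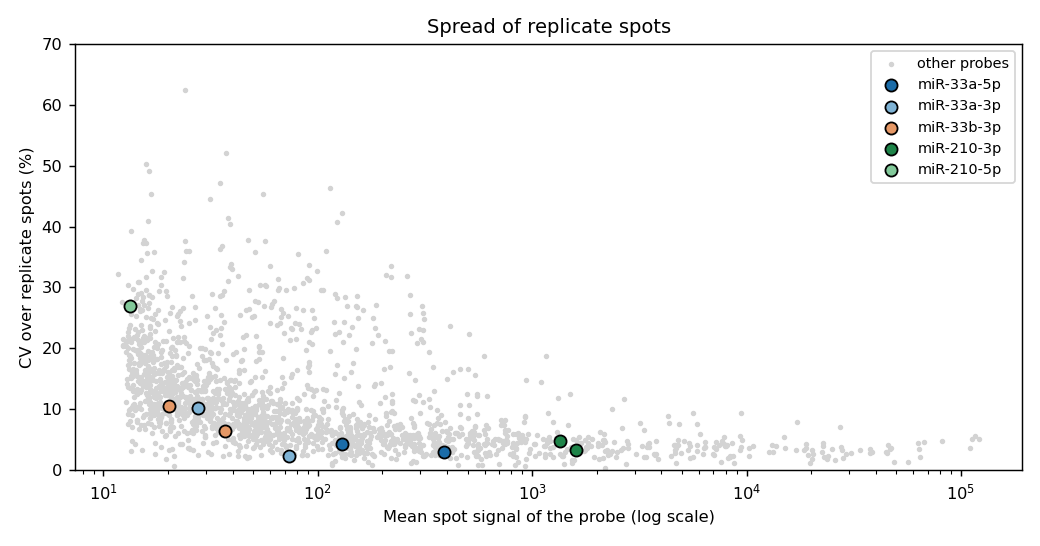
CV over replicate spots (vertical, %) against mean spot signal (horizontal, log scale) for the 1940 probes that passed the share of 50%, with the 9 probes of the miR-33 and miR-210 arms in colour. The CV falls as the signal rises, and the miR-210-5p probe (27.0%) stands highest of the coloured points.

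Spots of a probe are scattered over the array, so the upper and lower 192 rows were read apart. For miR-210-3p the brighter probe averaged 1588 in the upper rows and 1614 in the lower (5 spots each), and the other probe 1309 (4 spots) and 1364 (6 spots), with ranges that overlapped between upper and lower rows. For miR-33a-5p one probe averaged 127 (7 spots) and 133 (3 spots), and the other 382 (2 spots) and 389 (8 spots). The lower rows were slightly brighter in all 4 cases, by less than the difference between the probes of either arm. For miR-210-5p the better probe averaged 12.6 and 13.96 (5 spots each), also with overlapping ranges. Probes of miR-33a-3p went both ways. Its brightest averaged 72.6 in the upper and 73.5 in the lower rows (2 spots each), and the next 28.9 (3 spots) and 25.4 (2 spots). The brightest probe of miR-33b-3p kept spots in the lower rows only.

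The authors' normalized table kept these values on a log2 scale. It held 8.96 for miR-210-3p, 6.56 for miR-33a-5p, 3.47 for miR-33a-3p, 2.90 for miR-33b-3p, 2.3236 for miR-210-5p and 2.3219 for miR-33b-5p. The last is the floor, shared by all 1416 undetected miRNAs. The value of miR-210-5p is shared by 283 detected miRNAs and stands 0.0017 above the floor, so the table keeps no order between this arm and the others. MiR-33a-3p and miR-33b-3p stood 1.14 and 0.58 above the floor. MiR-210-3p and miR-33a-5p stood 6.63 and 4.23 above it. Were the floor the same in another array, these distances would be the largest falls from this sample that the table could show. That would leave next to none for miR-210-5p and none for miR-33b-5p. The floor was read in this sample only.

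Other miRNAs tied to the same biology were read as lists, chosen with earlier results of these data known. Of 16 further miRNAs linked to hypoxia 15 were called detected, all but miR-199a-5p. Of 16 linked to cholesterol and lipid handling 10 were called. The 6 not called included miR-122-5p, the abundant liver miRNA, and miR-144-3p, which is mostly erythroid. The share of all miRNAs called was 44.4%, and both lists hold long-known miRNAs, so nothing particular to the lists is drawn from these counts. With 1 sample, miRNAs whose levels vary together with miR-33 or miR-210 could not be sought.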

How the data were processed

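RNA of 1 si-NC sample of DLD-1 was hybridised to a single-colour Agilent miRNA array. The labelling was by Cyanine 3-pCp per the labels, whereas the methods of the study describe a cDNA kit. Per the file headers, the authors extracted spot intensity with Feature Extraction 11.0.1.1 (hg19 design). The scanner file as deposited gives spot intensity after background subtraction, without normalization between arrays, and flags. The deposited log2 values had been quantile normalized by the authors in GeneSpring. Of its sample columns, 0 were left out.

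The 6 arms, the lists and the rules were chosen with earlier results of these data known. All arms were named whatever their values, as was any array miRNA sharing a seed. Outlier spots (4.51% of miRNA spots, 4 of 120 here) were left out of means, SDs and spot rules. Probe differences are log2 ratios of probe means. Alternatives were other detection rules, normexp (offset 50, on median spot signals), outlier spots kept, the 75th percentile over all miRNA spots, upper or lower rows only, all probes with a mean above 0, and the deposited values. The CV and the probe difference were tested on simulated data, and the detection rules, outlier handling, levels and arm pairs were not. Every simulated spot was set well above background, with noise in proportion to its signal. That test thus did not cover the share of 50% or the background noise of dim probes. Sequences came from RefSeq (GRCh38.p14). Python 3.11.15, numpy 2.4.6, pandas 2.3.3, matplotlib 3.10.9, R 4.3.3 and limma 3.58.1 were used. Precision is limited by the single array.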

Additional observations from a re-analysis of the deposited data

How the results depend on the processing

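Over 17 results 67 alternative values were computed, of which 40 stayed within their limits, 27 moved and 0 reversed direction. Counts, shares, CVs and probe differences cannot be negative, so for these a reversal was not possible. The values are also not independent, since the median level repeats that of miR-33a-3p. The count of 5 detected arms fell to 2 under the rule on every probe, which can only remove arms, and was 4 or 5 otherwise. The log2 level against the 75th percentile of spots of detected miRNAs was 3.36 for miR-210-3p and 0.65 for miR-33a-5p. For miR-33a-3p, miR-33b-3p and miR-210-5p it was -2.85, -3.04 and -4.03. These levels come from different probes and are not read as relative abundance. The median of the 5 detected arms, -2.85, is the value of miR-33a-3p. This median became -0.41 when all miRNA spots set the percentile (whose reference signal is 26.3 instead of 143). With normexp it was -1.25, and with the deposited values -2.36. The median difference between probes, 1.14 over 4 arms, became 0.46 under normexp, which adds an offset. With all probes above 0, which adds dim ones and brings in miR-210-5p, the median was 1.59 over 5 arms. The 2 medians are thus over different arms, and the value of miR-33a-5p itself stayed at 1.59. For the deposited values the cause was not tested. The median CV, 4.84%, was 3.66% under normexp and 7.13% with outlier spots kept. Both counted as within its limit, an error of 7.72, which exceeds the CV itself and makes this a weak check. The list counts and the median deposited value stayed within their limits. So did the share of arm pairs, 28.6%, under the rules on spots of 1 probe (22.0%) and on negative controls (19.3%). The limit for this share was a ratio of 1.5, and the last value lay just inside it. The share was lower, at 16.7% and 11.6%, under the rules of a signal of 5 or more and of every probe. Both lay past that ratio, but these rules were outside the 67 values. No paired analysis was possible because 1 sample was analysed. Signal over background limits miR-210-5p and miR-33b-5p, whose median spots of 8.94 and 4.95 lay above the negative control median of 0.0894 and under the 99th percentile of these controls, 16.1.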
